A study of Mus musculus with 18 samples.

Results

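The bile acid genes described here are 10 genes of the liver that make, conjugate, move and sense bile acids: Cyp7a1, Cyp8b1, Cyp27a1, Cyp7b1, Slc27a5, Baat, Slc10a1, Abcb11, Nr1h4 and Nr0b2. They were chosen by name for these known roles, at a time when earlier results of these data were known. They are 10 of the 35441 genes listed in the deposited tables, and all 10 were among the 14533 genes that entered the tests, which had a sum over 100 reads. RNA-seq of polyA RNA had been made from 18 livers of male mice, 3 in each of 6 groups. WT littermates, Lipa-/- mice and rAAV8-treated Lipa-/- mice were studied at 12- and 34-weeks post-injection, which the labels give as 3 and 8 months. Lipa-/- mice lack lysosomal acid lipase, the enzyme that frees cholesterol from cholesteryl esters in the lysosome. The vector rAAV8 carried human LIPA under the hAAT promoter, which is active in hepatocytes, and was injected into a tail vein of young adult Lipa-/- mice. Other liver cells were not the target of the transgene. The approach of the paper depends, however, on hepatocytes that secrete the enzyme into the blood, so that other cells can be corrected too. Most untreated Lipa-/- mice of the long follow-up did not live to its end and were killed when they reached an endpoint, so that livers labelled with the 34-week time point in this group can come from mice killed earlier, and their ages at death were not used here.

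Hepatocytes turn cholesterol into bile acids by a classical pathway, which starts with Cyp7a1, and an alternative pathway, which starts with Cyp27a1 and goes on through Cyp7b1. The products are joined to taurine or glycine, pumped into bile, reabsorbed in the gut and taken up again from portal blood. Bile acids bind the nuclear receptor FXR, which turns on the corepressor SHP and, with a hormone signal from the gut, holds synthesis down.

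In untreated Lipa-/- livers, most of these genes were lower than in WT livers. At 12-weeks 7 of the 10 fell and at 34-weeks 9 of the 10 fell, whereas none rose. A gene was called changed when its log2 fold change was beyond 1 in size and its adjusted p was under 0.05 in edgeR's quasi-likelihood test, adjusted by Benjamini-Hochberg over all genes tested. The background was high. Of all genes tested, 29.3% were called in either direction and 9.06% were called lower at 12-weeks, and 36.3% and 15.7% at 34-weeks. Cyp7b1 and Cyp8b1 differed most from WT, and Cyp7a1 was the member that was called in no comparison. In rAAV8-treated livers 6 of the 10 genes were higher than in untreated Lipa-/- livers at 12-weeks (7 without treated mouse 10) and 9 of the 10 at 34-weeks. Here 41.5% of all genes were called in either direction and 16.2% were called higher at 12-weeks, and 31.5% and 12.8% at 34-weeks. Both comparisons at a time point share the same untreated livers.

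**Figure D1:**
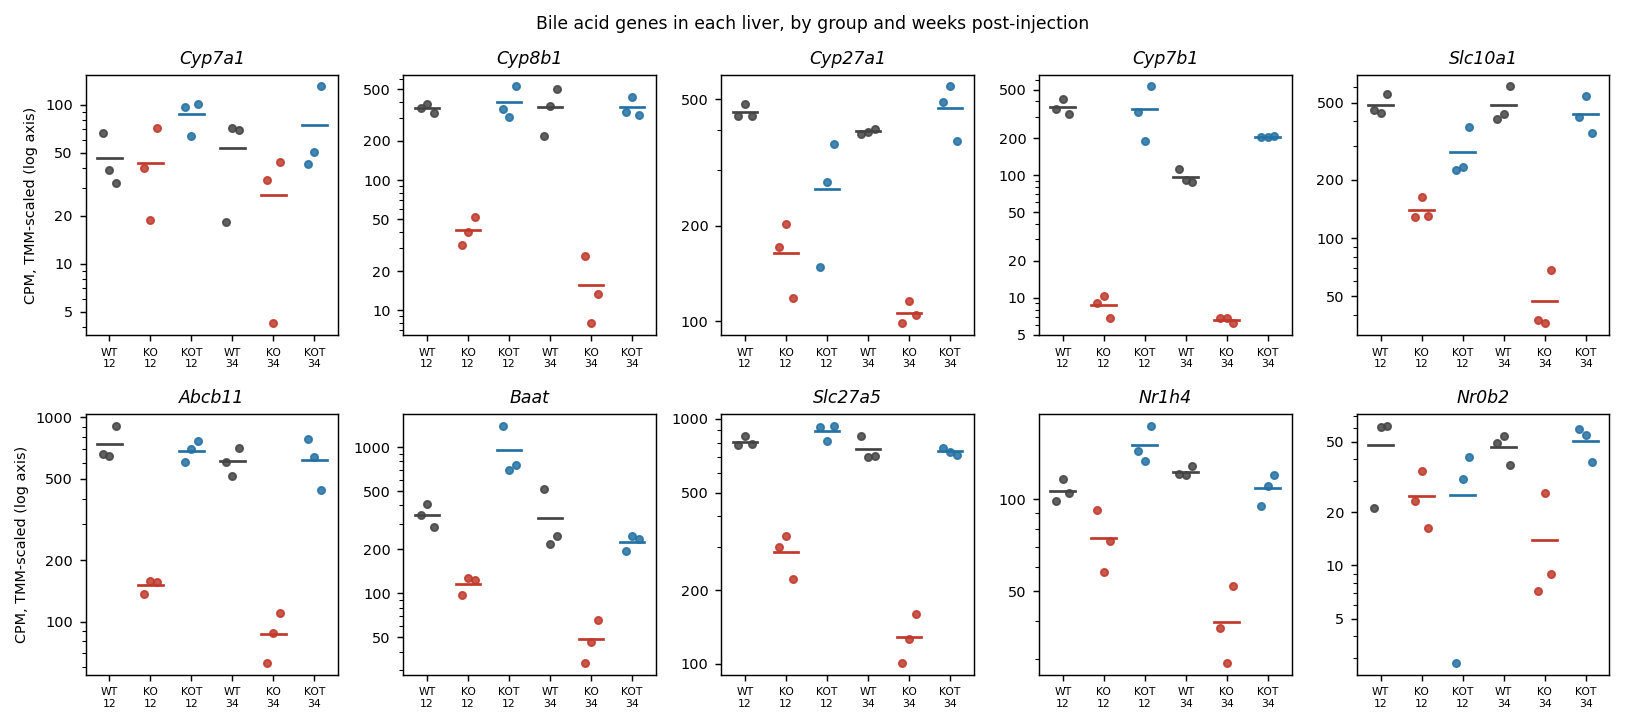
Level of each bile acid gene in each of the 18 livers, in CPM (the reads of a gene relative to the size of its library, scaled by TMM) on a log axis that differs between panels and does not start at 0. Points are mice and lines are group means (n = 3), with WT in grey, untreated Lipa-/- (KO) in red and rAAV8-treated Lipa-/- (KOT) in blue at 12- and 34-weeks post-injection. For Cyp7b1 the 6 untreated Lipa-/- livers lie between 6.17 and 10.3 and every other liver is at 87.6 or above, while the points of Cyp7a1 overlap between groups.

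The libraries held 17527848 to 25833133 assigned reads. Murine Lipa was at 202 to 323 CPM in WT livers and at 16.7 to 37 CPM in treated and untreated Lipa-/- livers, and human LIPA was at 523 to 2750 CPM in treated livers and at 0.906 CPM or less elsewhere. The 18 hepatocyte markers were all detected in every group, with a summed level of 110000 to 137000 CPM in WT livers, 104000 to 120000 CPM in Lipa-/- livers and 116000 to 179000 CPM in treated livers at 12-weeks, and 105000 to 136000, 64800 to 113000 and 103000 to 129000 CPM at 34-weeks. TMM scaling factors were 0.587 to 0.759 in the treated livers at 12-weeks, below those of every other library, and reached 1.69 in a Lipa-/- liver at 34-weeks. Treated mouse 10 of the 12-week group had the lowest factor and the fewest reads. For some results of the members the value without it is also given below, while the other gene lists were described only with it. All mice at 34-weeks carry one study code and all at 12-weeks another, apart from Lipa-/- mouse 5, so that code and time cannot be told apart. In bulk RNA, fewer hepatocytes and less RNA per hepatocyte cannot be told apart.

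Values per transcript length, in TPM, allow the genes to be compared with each other. In WT livers at 12-weeks the order of the mean levels was Slc27a5 (351 TPM), Slc10a1 (292), Cyp27a1 (262), Cyp8b1 (177.3), Abcb11 (177.0), Baat (170), Cyp7b1 (157), Nr1h4 (52.0), Nr0b2 (45.9) and Cyp7a1 (9.90). The ranges of neighbours in this order overlapped except between Cyp27a1 and Cyp8b1, between Cyp7b1 and Nr1h4, and between Nr0b2 and Cyp7a1. In Lipa-/- livers at 12-weeks Slc27a5 was still first with 165 TPM, but Cyp7b1 had moved to the last place with 5.29 TPM and lay below every value of Cyp7a1, which was at 14.6 TPM. Cyp8b1 had moved from 177 to 28.6 TPM and lay next to Nr0b2 at 32.3 TPM. At 34-weeks Cyp27a1 was the first in Lipa-/- livers with 125 TPM, followed by Slc27a5 with 102 TPM, and their ranges overlapped.

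Cyp7a1 encodes the rate-limiting hydroxylase of the classical pathway. The gene lies on chromosome 4 of GRCm39, from 6265612 to 6275633 on the minus strand, with 6 exons in its canonical transcript. It was at 66.9, 39.1 and 32.1 CPM in the WT livers at 12-weeks, 39.8, 18.7 and 71.3 CPM in the Lipa-/- livers and 96.3, 64.0 and 102 CPM in the treated livers. These groups overlapped, and the spread within each was wide, with the highest Lipa-/- liver 3.81 times the lowest. The log2 fold change between Lipa-/- and WT was -0.09 ± 0.68 (SE, adjusted p = 0.931), with a 95% interval of -1.53 to 1.35. An interval this wide does not show that the groups were alike. At 34-weeks the WT livers were at 18.2, 71.4 and 69.9 CPM, the Lipa-/- livers at 33.6, 4.21 and 43.6 CPM and the treated livers at 42.1, 50.4 and 131 CPM. The liver of Lipa-/- mouse 5 held the lowest Cyp7a1 level of the 18. Neither the difference from WT (log2 fold change -0.97 ± 0.69, adjusted p = 0.261) nor that between treated and untreated Lipa-/- livers (1.46 ± 0.69, adjusted p = 0.105) passed the test. The 12-week difference changed sign with the scaling, to 0.53 when libraries were scaled by the hepatocyte markers and to 0.40 by total counts.

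Cyp8b1 encodes the sterol hydroxylase that directs the classical pathway to cholic acid. It is a gene of 1 exon on chromosome 9, from 121743422 to 121745371 on the minus strand. At 12-weeks it was at 358, 387 and 329 CPM in WT livers, 31.5, 40.0 and 52.1 CPM in Lipa-/- livers and 352, 307 and 524 CPM in treated livers. Every Lipa-/- liver was below every liver of the other groups. The gene fell 8.70-fold in Lipa-/- livers (log2 fold change -3.12 ± 0.40, adjusted p = 1.33e-05) and was 3.26 ± 0.40 higher on the log2 scale in treated than in untreated Lipa-/- livers (adjusted p = 1.27e-05). The WT livers of the 34-week time point were at 219, 373 and 503 CPM, the Lipa-/- livers at 25.9, 7.92 and 13.3 CPM and the treated livers at 336, 432 and 317 CPM. Treated and WT livers overlapped, and the Lipa-/- livers stood apart from both. The fold difference from WT was 23.2 (log2 fold change -4.54 ± 0.43, adjusted p = 5.01e-07), and treated livers exceeded untreated ones by 4.52 ± 0.43 on the log2 scale (adjusted p = 9.9e-07).

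Cyp27a1, a mitochondrial sterol hydroxylase, starts the alternative pathway and also shortens the side chain in the classical pathway. Its gene lies on chromosome 1, from 74752314 to 74777056 on the plus strand, with 9 exons. WT livers held 443, 482 and 443 CPM at 12-weeks, Lipa-/- livers 172, 202 and 118 CPM and treated livers 148, 274 and 362 CPM. The treated livers lay below all WT livers, and the lowest of them, mouse 10, lay within the Lipa-/- range. Cyp27a1 fell in Lipa-/- livers (log2 fold change -1.47 ± 0.28, adjusted p = 0.000514). The differences of the treated livers did not reach the fold threshold, at 0.67 ± 0.28 against untreated livers (adjusted p = 0.0478) and -0.80 ± 0.28 against WT livers (adjusted p = 0.0325). Without mouse 10 they were 0.92 and -0.59. The difference from WT was called with total counts (-1.19, adjusted p = 0.00715), on TPM values with limma (-1.19, adjusted p = 0.00847) and without treated mouse 12 (-1.18). It did not pass the adjusted p with length offsets in edgeR (-0.53, adjusted p = 0.115) or with only the groups compared (-0.88, adjusted p = 0.0604). Nor did it pass in edgeR without treated mouse 10 (adjusted p = 0.0889). The difference from untreated livers had the opposite sign with total counts (-0.18), hepatocyte scaling (-0.043) and TPM (-0.32). Later, at 34-weeks, WT livers were at 389, 393 and 404 CPM, the Lipa-/- livers at 98.6, 116 and 105 CPM and the treated livers at 489, 548 and 369 CPM. Here the treated and WT livers overlapped and all Lipa-/- livers were lower. The gene fell in Lipa-/- livers (-1.89 ± 0.28, adjusted p = 4.25e-05) and was higher in treated than in untreated livers (2.14 ± 0.29, adjusted p = 2.01e-05).

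Cyp7b1 encodes the oxysterol hydroxylase of the alternative pathway and is known to be higher in livers of male than of female mice. The gene lies on chromosome 3, from 18117411 to 18297740 on the minus strand, with 6 exons. At 12-weeks the WT livers were at 348, 419 and 313 CPM, the Lipa-/- livers at 9.01, 10.3 and 6.87 CPM and the treated livers at 328, 191 and 531 CPM. The Lipa-/- livers did not approach either group, and the treated livers spread around the WT livers. Cyp7b1 was 41.2-fold lower in Lipa-/- than in WT livers (log2 fold change -5.37 ± 0.33, adjusted p = 1.7e-08) and 5.33 ± 0.33 higher on the log2 scale in treated than in untreated livers (adjusted p = 6.83e-08). Values at 34-weeks were lower in WT livers, at 112, 91.5 and 87.6 CPM, with the Lipa-/- livers at 6.87, 6.80 and 6.17 CPM and the treated livers at 205, 205 and 209 CPM. The Lipa-/- livers were again the lowest, and the treated livers lay above all WT livers. The gene fell 14.6-fold against WT (-3.87 ± 0.31, adjusted p = 1.35e-07), and treated livers exceeded untreated ones by 4.96 ± 0.33 (adjusted p = 6.96e-08). Treated livers exceeded WT livers by 1.09 ± 0.28, which did not pass the test over all genes (adjusted p = 0.239), whereas DESeq2 called it.

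The 250 bases before the canonical start sites are shown for the 3 members that hold the nuclear receptor half-site AGGTCA there. Letters run 5' to 3' on the strand of the gene in GRCm39, and capitals mark the half-site, written TGACCT where it lies on the opposite strand.
Cyp7b1, chr3:18297741-18297990, minus strand: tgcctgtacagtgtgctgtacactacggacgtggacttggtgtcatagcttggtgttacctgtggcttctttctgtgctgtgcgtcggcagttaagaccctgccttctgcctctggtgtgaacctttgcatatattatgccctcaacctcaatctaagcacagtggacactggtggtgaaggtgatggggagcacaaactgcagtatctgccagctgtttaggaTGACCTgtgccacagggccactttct
Slc10a1, chr12:81014854-81015103, minus strand: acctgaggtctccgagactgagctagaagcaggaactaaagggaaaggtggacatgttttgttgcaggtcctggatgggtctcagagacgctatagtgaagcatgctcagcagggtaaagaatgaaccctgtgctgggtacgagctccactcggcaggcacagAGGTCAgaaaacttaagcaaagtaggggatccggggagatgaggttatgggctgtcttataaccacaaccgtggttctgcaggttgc
Nr1h4, chr10:89342512-89342761, minus strand: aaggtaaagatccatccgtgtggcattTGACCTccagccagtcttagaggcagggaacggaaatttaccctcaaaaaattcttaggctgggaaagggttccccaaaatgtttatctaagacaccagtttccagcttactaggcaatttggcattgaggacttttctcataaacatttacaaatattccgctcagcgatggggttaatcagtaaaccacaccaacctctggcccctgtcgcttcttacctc
Searched on both strands, the half-site AGGTCA was in the 250 bases upstream of 13.1% of 21770 protein-coding genes. It was found once in each of Cyp7b1, Slc10a1 and Nr1h4. Its longer form CAAGGTCA, in 1.37% of all genes, was in none of these 3. The inverted repeat AGGTCANTGACCT with 3 or fewer mismatches was in 9.62% of all genes, and among the members in Cyp8b1 and in Slc10a1, where it overlaps the half-site. These matches describe letters only.

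In TPM, the Cyp8b1 level was 19.5 ± 6.29 times (SD, n = 3) that of Cyp7a1 in WT livers, 2.46 ± 1.48 times in Lipa-/- livers and 10.4 ± 1.8 times in treated livers at 12-weeks. At 34-weeks the ratio was 18.3 ± 8.38, 2.19 ± 1.91 and 14.3 ± 8.07. Within the classical pathway the level of Cyp8b1 thus differed between groups relative to that of Cyp7a1, with the Lipa-/- livers below the WT livers at both times. The Cyp7b1 level was 0.605 ± 0.061 of that of Cyp27a1 in WT livers and 0.037 ± 0.0058 of it in Lipa-/- livers at 12-weeks, and 0.190 ± 0.024 and 0.0439 ± 0.0040 of it at 34-weeks. In treated livers it was 0.847 ± 0.371 and 0.346 ± 0.079, and the later value lay above the WT range. These ratios were chosen after the values had been seen and were not tested.

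Slc27a5 encodes the ligase that activates bile acids with coenzyme A, and Baat encodes the transferase that then joins them to taurine or glycine. Slc27a5 lies on chromosome 7, from 12722273 to 12732137 on the minus strand, with 10 exons, and Baat lies on chromosome 4, from 49489289 to 49506563 on the minus strand, with 4 exons. Slc27a5 was at 780, 853 and 789 CPM in WT livers at 12-weeks, 299.7, 333 and 223 CPM in Lipa-/- livers and 924, 810 and 937 CPM in treated livers. At 34-weeks it was at 851, 700 and 705 CPM, 101, 127 and 160 CPM, and 758, 734 and 713 CPM in the same order of groups. At both times the Lipa-/- livers were below all others, and the treated livers overlapped the WT livers. The log2 fold change against WT was -1.50 ± 0.22 (adjusted p = 4.23e-05) at 12-weeks and -2.54 ± 0.22 (adjusted p = 2.96e-07) at 34-weeks. Treated livers exceeded untreated ones by 1.64 ± 0.22 (adjusted p = 2.2e-05) and 2.51 ± 0.22 (adjusted p = 6.2e-07). The first of these was 0.76 with total counts and 0.51 with TPM, short of the fold threshold.

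Baat was at 345, 407 and 284 CPM in WT livers at 12-weeks, 97.4, 128 and 124 CPM in Lipa-/- livers and 1402, 694 and 750 CPM in treated livers. The 3 groups did not overlap, with the treated livers above the WT livers and the Lipa-/- livers below them. Baat fell in Lipa-/- livers (log2 fold change -1.56 ± 0.35, adjusted p = 0.00206) and was higher in treated than in untreated livers (3.02 ± 0.37, adjusted p = 1.22e-05). It was also the one member that was higher in treated than in WT livers at 12-weeks (1.46 ± 0.35, adjusted p = 0.00769), in a comparison where 25.5% of all genes were called and 13.6% were called higher. Without mouse 10, whose Baat level was the highest of the 18 livers, this difference was 0.99 (adjusted p = 0.058) and was no longer called, and on TPM values with limma it was 0.73 (adjusted p = 0.0222) and was not called either. At 34-weeks Baat was at 519, 218 and 246 CPM in WT livers, 33.6, 46.5 and 66.0 CPM in Lipa-/- livers and 196, 246 and 235 CPM in treated livers. The Lipa-/- livers were again the lowest and the treated livers overlapped the WT livers, of which mouse 1 stood high. The gene fell in Lipa-/- livers (-2.75 ± 0.37, adjusted p = 1.41e-05) and was higher in treated than in untreated livers (2.21 ± 0.36, adjusted p = 0.000123).

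In TPM, the Baat level was 0.491 ± 0.073 (SD, n = 3) of the Slc27a5 level in WT livers at 12-weeks, 0.499 ± 0.137 of it in Lipa-/- livers and 1.26 ± 0.48 of it in treated livers. Both conjugation genes were thus lower in Lipa-/- livers with no difference in their ratio beyond the spread. In the treated livers at 12-weeks the ratio lay above both other groups, at 0.951 to 1.81, with mouse 10 the highest. At 34-weeks it was 0.490 ± 0.196, 0.432 ± 0.050 and 0.353 ± 0.053 in the same order, with groups that overlapped. These ratios were looked at after the single values had been seen and were not tested.

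Slc10a1 encodes NTCP, the sodium-dependent carrier that takes conjugated bile acids up from portal blood. The gene lies on chromosome 12, from 80996372 to 81015479 on the minus strand, with 4 exons in its canonical transcript. At 12-weeks it was at 458, 442 and 555 CPM in WT livers, 129, 162 and 130 CPM in Lipa-/- livers and 225, 232 and 377 CPM in treated livers. The treated livers lay between the other groups and overlapped neither. Slc10a1 fell in Lipa-/- livers (log2 fold change -1.79 ± 0.29, adjusted p = 0.00013). Treated livers were at 0.99 ± 0.29 against untreated livers (adjusted p = 0.00833) and at -0.80 ± 0.28 against WT livers (adjusted p = 0.036), both short of the fold threshold. The first was called without treated mouse 10 (1.08, adjusted p = 0.00906) or 11 (1.10) or Lipa-/- mouse 8 (1.10), with DESeq2 (1.03, adjusted p = 0.000856) and with only the groups compared (1.02), whereas it was 0.11 with total counts, 0.34 with hepatocyte scaling and -0.18 on TPM values with limma. The second was called with total counts (-1.23, adjusted p = 0.00571), on TPM (-1.50, adjusted p = 0.00482) and without treated mouse 12 (-1.16). At 34-weeks the WT livers were at 410, 437 and 607 CPM, the Lipa-/- livers at 37.6, 36.3 and 68.3 CPM and the treated livers at 422, 539 and 350 CPM. The treated and WT livers overlapped there and the Lipa-/- livers were far below. The fold difference from WT was 10.2 (-3.35 ± 0.31, adjusted p = 4.13e-07), and treated livers exceeded untreated ones by 3.21 ± 0.31 (adjusted p = 1.14e-06).

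Abcb11 encodes BSEP, the pump that exports bile salts across the canalicular membrane. It lies on chromosome 2, from 69068544 to 69173315 on the minus strand, with 28 exons. At 12-weeks the WT livers were at 662, 650 and 911 CPM, the Lipa-/- livers at 136, 158 and 157 CPM and the treated livers at 603, 698 and 763 CPM. At 34-weeks the levels were 607, 519 and 708 CPM, 63.0, 88.4 and 110 CPM, and 788, 638 and 439 CPM. At each time the Lipa-/- livers lay below all others and the treated livers overlapped the WT livers. The gene fell 4.93-fold at 12-weeks (log2 fold change -2.30 ± 0.27, adjusted p = 4.89e-06) and 7.01-fold at 34-weeks (-2.81 ± 0.27, adjusted p = 6.21e-07). Treated livers exceeded untreated ones by 2.19 ± 0.27 (adjusted p = 1.14e-05) and 2.83 ± 0.27 (adjusted p = 1.18e-06).

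The level of Abcb11 depended on its effective length, the mean length of the transcripts to which the authors' quantification assigned reads. This length spanned 1124 to 4620 bases over the 18 livers, a 4.11-fold range, whereas the ranges of the other members were 1.02-fold to 1.57-fold. It was 2831 to 4111 bases in WT livers, 1560 to 2180 bases in Lipa-/- livers and 1124 to 1803 bases in treated livers at 12-weeks. In the treated and in the untreated Lipa-/- livers at 12-weeks the length was shorter than in any WT liver. In TPM, which divides by this length, Abcb11 was at 177 ± 37 in WT livers, 91.6 ± 5.4 in Lipa-/- livers and 263 ± 55 in treated livers at 12-weeks, so that the treated livers lay above the WT livers. With the lengths as offsets in edgeR the difference between treated and WT livers went from -0.11 (adjusted p = 0.763) to 1.18 (adjusted p = 0.00824), and that between the time points of treated livers from -0.15 (adjusted p = 0.661) to -1.53 (adjusted p = 0.00149). The decrease in Lipa-/- livers at 12-weeks went from -2.30 to -1.43 with the length offsets (adjusted p = 0.00101) and was still called. On TPM values with limma this decrease was -0.93 (adjusted p = 0.00378), short of the fold threshold. At 34-weeks the lengths of WT and treated livers overlapped, and the TPM levels were 180 ± 19, 52.9 ± 14.1 and 175 ± 28. Which transcripts the reads came from was not analysed here.

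**Figure D2:**
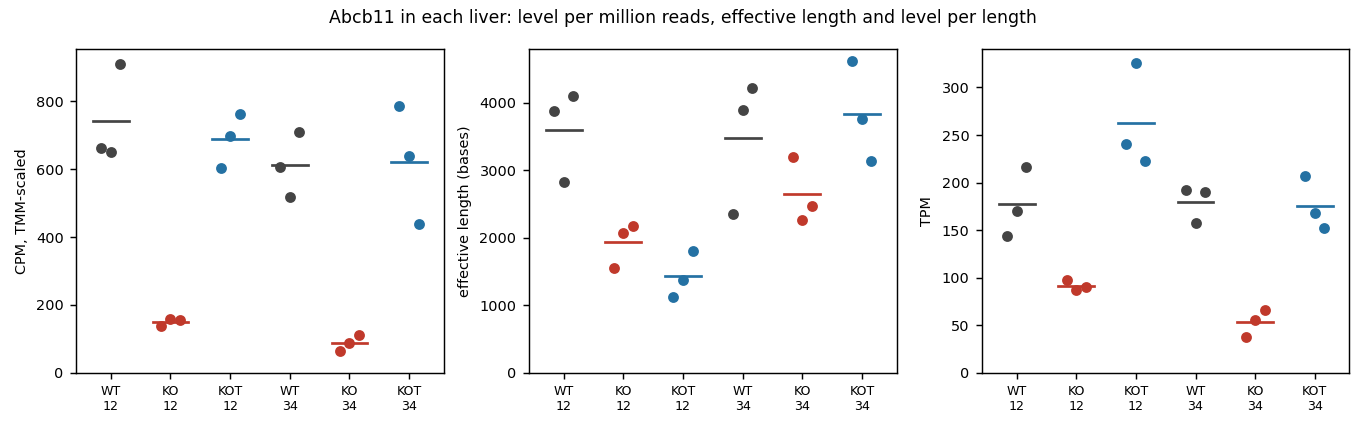
Abcb11 in each of the 18 livers as CPM scaled by TMM (left), effective length in bases (middle) and TPM (right), with points for mice and lines for group means (n = 3). At 12-weeks the treated livers (KOT) overlap the WT livers in the left panel, lie at 1124 to 1803 bases, below all WT livers, in the middle panel and are the highest in the right panel. The untreated Lipa-/- livers (KO) at 12-weeks, at 1560 to 2180 bases, also lie below all WT livers in the middle panel.

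Nr1h4 encodes FXR, the receptor that bile acids bind. The gene lies on chromosome 10, from 89289742 to 89369497 on the minus strand, with 9 exons in its canonical transcript. At 12-weeks it was at 98.8, 116 and 104 CPM in WT livers, 92.3, 57.7 and 73.3 CPM in Lipa-/- livers and 144, 133 and 174 CPM in treated livers. The 3 groups did not overlap. The difference between Lipa-/- and WT livers was -0.52 ± 0.22 on the log2 scale and did not pass the test (adjusted p = 0.0697), and with hepatocyte scaling it was 0.12. Treated livers exceeded untreated ones by 1.01 ± 0.22 (adjusted p = 0.00119), just past the fold threshold. This call was lost with total counts (0.12), upper quartile factors (0.91) and hepatocyte scaling (0.39), and without Lipa-/- mouse 8 or treated mouse 12, and the value was -0.10 on TPM with limma. At 34-weeks the WT livers were at 121, 120 and 128 CPM, the Lipa-/- livers at 37.9, 29.3 and 52.2 CPM and the treated livers at 95.2, 110 and 120 CPM. All Lipa-/- livers were below the rest, and the treated livers were just below the WT livers. Nr1h4 fell (-1.63 ± 0.22, adjusted p = 1.86e-05) and was higher in treated than in untreated livers (1.45 ± 0.22, adjusted p = 7.31e-05). With hepatocyte scaling these differences were -0.57 and 0.38, and neither was called. The second was also short of the fold threshold with total counts (0.91) and on TPM (0.92).

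Nr0b2 encodes SHP, a corepressor that FXR turns on and that lacks a DNA-binding domain. It lies on chromosome 4, from 133280678 to 133283847 on the plus strand, with 2 exons. At 12-weeks the WT livers were at 21.1, 60.5 and 61.8 CPM, the Lipa-/- livers at 23.3, 34.3 and 16.3 CPM and the treated livers at 2.82, 30.9 and 41.2 CPM. The groups overlapped, with a low WT liver, that of mouse 1, and a treated liver, that of mouse 10, far below the rest. Neither the difference between Lipa-/- and WT livers (-0.96 ± 0.65, adjusted p = 0.26) nor that between treated and untreated livers (0.03 ± 0.64, adjusted p = 0.976) passed the test, and without mouse 10 the second was 0.51. At 34-weeks the WT livers were at 49.0, 54.0 and 37.2 CPM, the Lipa-/- livers at 7.13, 25.7 and 8.89 CPM and the treated livers at 59.1, 54.5 and 38.4 CPM. No Lipa-/- liver reached any liver of the other groups. Nr0b2 fell in Lipa-/- livers (-1.75 ± 0.66, adjusted p = 0.0382) and was higher in treated than in untreated livers (1.86 ± 0.66, adjusted p = 0.0323). Both calls were near the threshold and were lost with total counts (-1.15, adjusted p = 0.155, and 1.35, adjusted p = 0.107), with hepatocyte scaling and on TPM with limma. Upper quartile factors lost the first as well. The first was also lost without Lipa-/- mouse 4 (-1.43) or 6 (-1.51) or WT mouse 1 (-1.71) or 2 (-1.63), and the second without Lipa-/- mouse 4 (1.55) or 6 (1.62) or treated mouse 9 (1.74) or 11 (1.81).

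Nr0b2 and Cyp7a1 spread widely within groups, and their order among the mice of a group was looked at because FXR and SHP are known to repress Cyp7a1. In 3 of the 6 groups the mouse with the most Cyp7a1 had the least Nr0b2, and in 4 of the 6 the mouse with the least Cyp7a1 had the most Nr0b2. Lipa-/- mouse 5 at 34-weeks had the least Cyp7a1 (4.21 CPM) and the most Nr0b2 (25.7 CPM) of its group. The WT livers at 34-weeks and the treated livers at 12-weeks did not show this order. There the mouse with the most Cyp7a1 also had the most Nr0b2, mouse 2 in the WT livers and mouse 12 in the treated livers. In the treated livers at 12-weeks, mouse 10 had the least Nr0b2 and an intermediate level of Cyp7a1. With 3 mice a group, such matches are common by chance. The opposite order was chosen after the values had been seen and was not tested. The hours of killing were not used here.

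**Figure D3:**
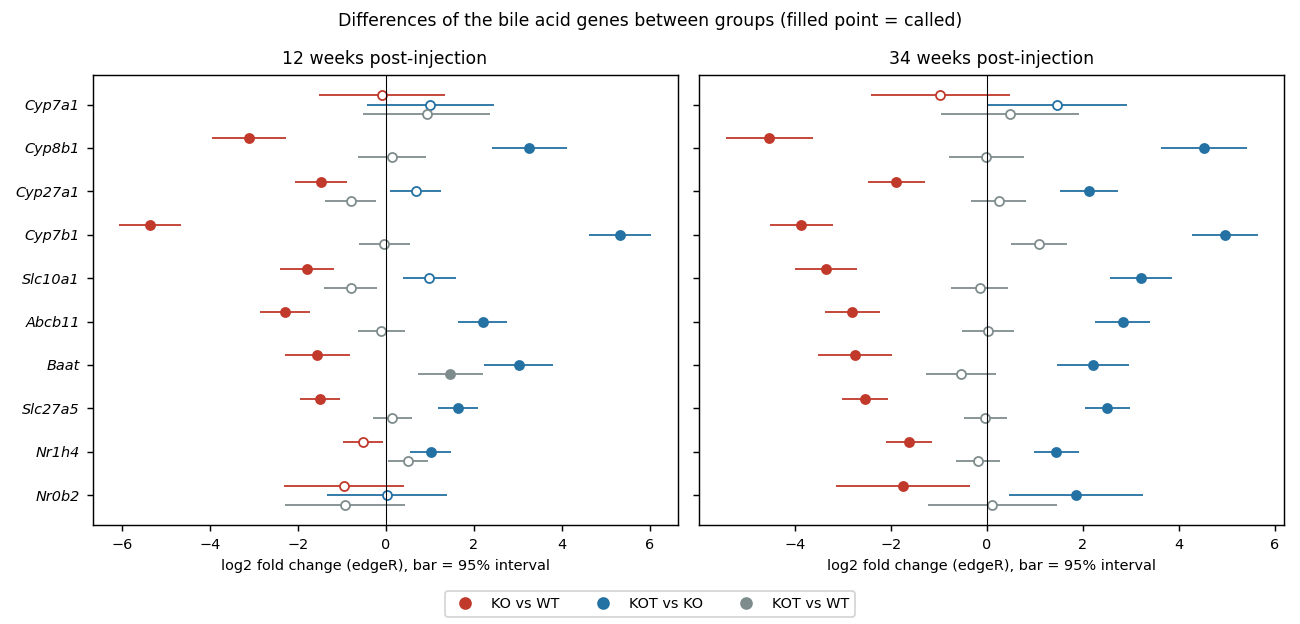
Log2 fold change of each bile acid gene from edgeR at 12-weeks (left) and 34-weeks (right), with bars for the 95% interval and filled points for calls (n = 3 livers a group). Untreated Lipa-/- against WT is in red (KO vs WT), treated against untreated in blue (KOT vs KO) and treated against WT in grey (KOT vs WT). In the right panel all grey points are open and every blue point but that of Cyp7a1 is filled, and the 2 comparisons that involve untreated livers share them.

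Over both times, 7 members fell in Lipa-/- livers at 12- and again at 34-weeks, as did 7.49% of all genes tested. These were Cyp8b1, Cyp27a1, Cyp7b1, Slc10a1, Abcb11, Baat and Slc27a5. Of these, all but Cyp27a1 and Slc10a1 were also called higher in treated than in untreated livers at both times, 5 members in all. Among all genes, 1088 fell at both times, and 712 of these were also called higher in treated livers at both times. Those 712 were 4.9% of all genes tested, but most of the genes that fell at both times. Against WT, treated livers at 34-weeks had 0 members called by edgeR, with 0.22% of all genes called. In that comparison 1 member, Cyp7b1, had an unadjusted p under 0.05, and DESeq2 called this 1, among 85 genes in all. The median log2 fold change of the 10 members was -1.53 in Lipa-/- against WT livers at 12-weeks, beside 0.02 over all genes, and -2.65 at 34-weeks, beside -0.03. In treated against untreated livers the medians were 1.33 beside -0.19 at 12-weeks and 2.36 beside 0.03 at 34-weeks.

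Scaling bears on these counts, because the share of all calls that were higher moved with it. In Lipa-/- against WT livers 69.1% of calls were higher at 12-weeks and 56.6% at 34-weeks, against 87.2% and 81.8% with total counts and 91.0% and 91.8% with hepatocyte scaling. In treated against untreated livers 39.0% and 40.8% were higher, against 8.92% and 18.5% with total counts and 15.8% and 6.67% with hepatocyte scaling. In treated against WT livers at 12-weeks 53.1% were higher, against 24.4% with total counts and 13.6% with TPM, and at 34-weeks 59.4%, against 70.8% with total counts. The median of all genes in Lipa-/- against WT livers went to 0.64 at 12-weeks and 1.06 at 34-weeks with hepatocyte scaling. Relative to WT livers, Cyp8b1, Cyp7b1, Slc10a1 and Abcb11 were still called lower at 12-weeks with that scaling, and Cyp27a1 (-0.85), Baat (-0.93) and Slc27a5 (-0.88) were not. At 34-weeks Cyp27a1 (-0.80), Nr1h4 (-0.57) and Nr0b2 (-0.64) were not called with it. On TPM values with limma Cyp27a1 (-0.87) and Abcb11 (-0.93) at 12-weeks and Nr1h4 at 34-weeks (-0.98) were short of the fold threshold. Nr0b2 at 34-weeks was not called on TPM either. No call of a member in Lipa-/- against WT livers changed direction under the scalings tried.

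Between the time points, Cyp7b1 was the one member called in WT livers and was lower at 34- than at 12-weeks (log2 fold change -1.89 ± 0.28, adjusted p = 0.00693), where 0.323% of all genes were called. This call was lost without WT mouse 2 (-1.85) or 3 (-1.83) of the 34-week group. Of all calls in WT livers 68.1% were higher, against 82.9% with hepatocyte scaling. In Lipa-/- livers Slc10a1 (-1.56 ± 0.29, adjusted p = 0.0261) and Slc27a5 (-1.14 ± 0.21, adjusted p = 0.0264) were lower at 34-weeks, with 0.495% of all genes called. Both calls were lost when any of Lipa-/- mice 5 and 8 at 12-weeks or 4 and 5 at 34-weeks was left out, with Slc10a1 at -1.62 to -1.41 and Slc27a5 at -1.13 to -0.995. Of all calls in that comparison 6.94% were higher, against 92.0% with hepatocyte scaling, under which neither gene was called. With total counts Slc10a1 (-1.27) and Slc27a5 (-0.85) were not called either. In treated livers Baat was lower at 34-weeks (-2.07 ± 0.36, adjusted p = 0.00144), with 32.0% of all genes called. Without treated mouse 10 of the 12-week group the value was -1.64 (adjusted p = 0.00708) and was still called. On TPM values with limma it was -0.98 (adjusted p = 0.00203), short of the fold threshold. Of all calls in treated livers 54.7% were higher, against 87.8% with total counts. The other differences that passed the adjusted p but not the fold threshold in treated livers were those of Cyp27a1 (0.84 ± 0.28, adjusted p = 0.021) and Cyp7b1 (-0.77 ± 0.28, adjusted p = 0.0326). That of Cyp27a1 was called with total counts (1.46), hepatocyte scaling (1.13) and TPM (1.57) and without treated mouse 12 of either time (1.18 and 1.03), and that of Cyp7b1 without treated mouse 11 at 12-weeks (-1.06). Slc10a1 (0.65 ± 0.28, adjusted p = 0.0691) was called with total counts (1.29) and TPM (1.69).

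The change of a difference between the time points was tested as an interaction. For Lipa-/- against WT, edgeR called 0 of the 10 members and 0.0619% of all genes, which were 9 genes. DESeq2 called 4 members, among 191 genes in all. In edgeR 6 members had an unadjusted p under 0.05, and the share of all genes with such a p is not given here. Of all edgeR calls for this interaction 33.3% were higher, against 69.8% with TPM. Slc10a1 was at -1.56 ± 0.40 (adjusted p = 0.163) and Cyp7b1 at 1.49 ± 0.40 (adjusted p = 0.173). For treated livers against WT, Baat was called (-2.00 ± 0.49, adjusted p = 0.0246), where 18.4% of all genes were called. Without mouse 10 the value was -1.53 (adjusted p = 0.0629). Of all calls for that interaction 46.6% were higher, against 81.3% with total counts. Cyp7b1 (1.13 ± 0.39, adjusted p = 0.0508) and Cyp27a1 (1.05 ± 0.39, adjusted p = 0.0646) were not called, whereas both were with DESeq2 (1.08 and 1.00), upper quartile factors (1.22 and 1.13), total counts (1.67 and 1.51) and TPM (2.04 and 1.56).

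The members also differed in how they moved from liver to liver. Likeness was taken as the root mean square difference of mean-centred log2 CPM over the 18 livers, as a description. Abcb11 and Slc27a5 were the most alike pair of members (0.342), followed by Slc10a1 with Abcb11 (0.451), and Cyp7b1 and Nr0b2 were the least alike (2.22). Among 12589 other genes, the one nearest to Slc27a5 was Ghr (0.144), the growth hormone receptor. Macrod1 was nearest to Cyp27a1 (0.179), Cat, the gene of catalase, to Abcb11 (0.213) and Inca1 to Nr1h4 (0.223). For Slc10a1 it was Clcn2 (0.306). Cyp7a1 had no near neighbour, since E2f8 was the closest at 0.739 and the spread of Cyp7a1 itself was 1.11.

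Other genes of bile acid synthesis moved in the same direction as most members. Of 15 such genes, 9 were called lower and 1 higher in Lipa-/- livers at 12-weeks, and 12 lower and 1 higher at 34-weeks, with a median log2 fold change of -1.38 and -2.49. Among all genes, 29.3% were called in either direction and 9.06% lower at 12-weeks, and 36.3% and 15.7% at 34-weeks. The one of the 15 that was higher at both times was Ch25h, an oxysterol-forming hydroxylase named here after its values had been seen. Abcd3, a peroxisomal membrane transporter, was at 553 to 599 CPM in WT livers and 84.7 to 121 CPM in Lipa-/- livers at 12-weeks (-2.44 ± 0.26, adjusted p = 1.83e-06). Akr1c14 (-2.16 ± 0.41, adjusted p = 0.000515) and Scp2, which serves peroxisomal side chain cleavage (-1.84 ± 0.28, adjusted p = 8.13e-05), fell as well. In treated against untreated livers 11 of the 15 were higher and none lower at 12-weeks, including Hsd3b7, which acts after the first hydroxylation (2.52 ± 0.31, adjusted p = 1.36e-05), and Cyp2c70, which makes muricholic acids in mice (2.42 ± 0.37, adjusted p = 6.97e-05). At 34-weeks 11 were higher and 1, Ch25h, was lower. Among all genes, 41.5% were called in either direction and 16.2% higher at 12-weeks, and 31.5% and 12.8% at 34-weeks. Against WT, 1 of the 15 was higher and 2 were lower in treated livers at 12-weeks, where 25.5% of all genes were called. At 34-weeks edgeR and DESeq2 called 0 of the 15, and 4 had an unadjusted p under 0.05. There edgeR called 0.22% of all genes.

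Of 14 other transporters, 4 were called higher and 4 lower in Lipa-/- livers at 12-weeks, and 1 higher and 5 lower at 34-weeks, with medians of -0.31 and -0.57. Among all genes, 29.3% were called in either direction at 12-weeks and 36.3% at 34-weeks. Uptake carriers moved in both directions. Slco1a1 was at 435 to 639 CPM in WT livers and 0.404 to 1.17 CPM in Lipa-/- livers at 12-weeks (-9.34 ± 0.88, adjusted p = 5.82e-07), and Slco1b2 at 937 to 1108 and 257 to 337 CPM (-1.81 ± 0.30, adjusted p = 0.000138). Slco1a4, another uptake carrier, was at 5.84 to 12.2 CPM in WT and 23.6 to 42.2 CPM in Lipa-/- livers at 12-weeks, and rose (1.73 ± 0.40, adjusted p = 0.00271) and was lower in treated than in untreated livers at both times (-2.78 ± 0.43, adjusted p = 7.88e-05, and -1.50 ± 0.40, adjusted p = 0.0064). The other 3 that rose at 12-weeks were basolateral exporters at low levels. Abcc4 was at 0.804 to 1.05 CPM in WT and 2.27 to 4.45 CPM in Lipa-/- livers at 12-weeks (1.72 ± 0.47, adjusted p = 0.00838), and Slc51b at 1.20 to 1.72 and 4.22 to 5.90 CPM (1.80 ± 0.46, adjusted p = 0.00544). Slc51a, the partner of Slc51b, was at 0.191 to 0.262 and 0.427 to 1.53 CPM (2.11 ± 0.67, adjusted p = 0.0183). At 34-weeks Abcc4 was the one called higher (1.25 ± 0.44, adjusted p = 0.0281), while Slc51b was at 0.85 ± 0.45 (adjusted p = 0.129). Treated livers had lower Slc51b than untreated ones at 12-weeks (-1.47 ± 0.47, adjusted p = 0.014) and at 34-weeks (-2.10 ± 0.47, adjusted p = 0.00181). In that contrast 3 transporters were higher and 5 lower at 12-weeks and 4 higher and 3 lower at 34-weeks, beside 41.5% and 31.5% of all genes called. Against WT, 1 transporter was higher and 2 were lower in treated livers at 12-weeks, beside 25.5% of all genes called. At 34-weeks edgeR and DESeq2 called 0 transporters, with 4 at an unadjusted p under 0.05, and edgeR called 0.22% of all genes.

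Of 20 regulators 18 were tested. Fgf15, the gut hormone, had 0 reads in every liver, which allows up to 0.2915 CPM in the shallowest library for counting error alone, and Gpbar1 had at most 3 reads. In Lipa-/- livers 2 regulators were called higher and 3 lower at 12-weeks, and 2 higher and 5 lower at 34-weeks. Of all genes, 29.3% and 36.3% were called in either direction in these comparisons. S1pr2, a receptor for conjugated bile acids, was at 3.92 to 5.34 CPM in WT and 16.6 to 27.7 CPM in Lipa-/- livers at 12-weeks (2.31 ± 0.20, adjusted p = 3.25e-07), and Vdr, the other one higher, was named after its values had been seen. Onecut1 (-4.37 ± 0.72, adjusted p = 0.000147) and Ppara (-1.42 ± 0.35, adjusted p = 0.00371) fell at 12-weeks. Hnf4a, an activator of Cyp7a1 and Cyp8b1, was at 340 to 549 CPM in WT, 177 to 285 CPM in Lipa-/- and 72.0 to 145 CPM in treated livers at 12-weeks. Treated livers were called lower than WT livers (-1.81 ± 0.31, adjusted p = 0.00229). At 34-weeks treated livers were at 310 to 436 CPM. The part of Hnf4a in the levels of the members was not tested. Nr5a2, another activator, was at -0.66 ± 0.23 (adjusted p = 0.0279) and -0.78 ± 0.23 (adjusted p = 0.00931) in Lipa-/- against WT livers, short of the fold threshold. Fgfr4, the receptor for Fgf15, was at -0.15 ± 0.42 (adjusted p = 0.807) at 12-weeks, and its partner Klb fell at 34-weeks (-1.57 ± 0.48, adjusted p = 0.0125). Treated against untreated livers had 2 regulators higher and 4 lower at 12-weeks and 7 higher and 2 lower at 34-weeks. Of all genes, 41.5% and 31.5% were called there in either direction. Against WT, 1 regulator was higher and 6 were lower in treated livers at 12-weeks, where 25.5% of all genes were called. At 34-weeks edgeR and DESeq2 called 0, with 0 at an unadjusted p under 0.05.

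**Figure D4:**
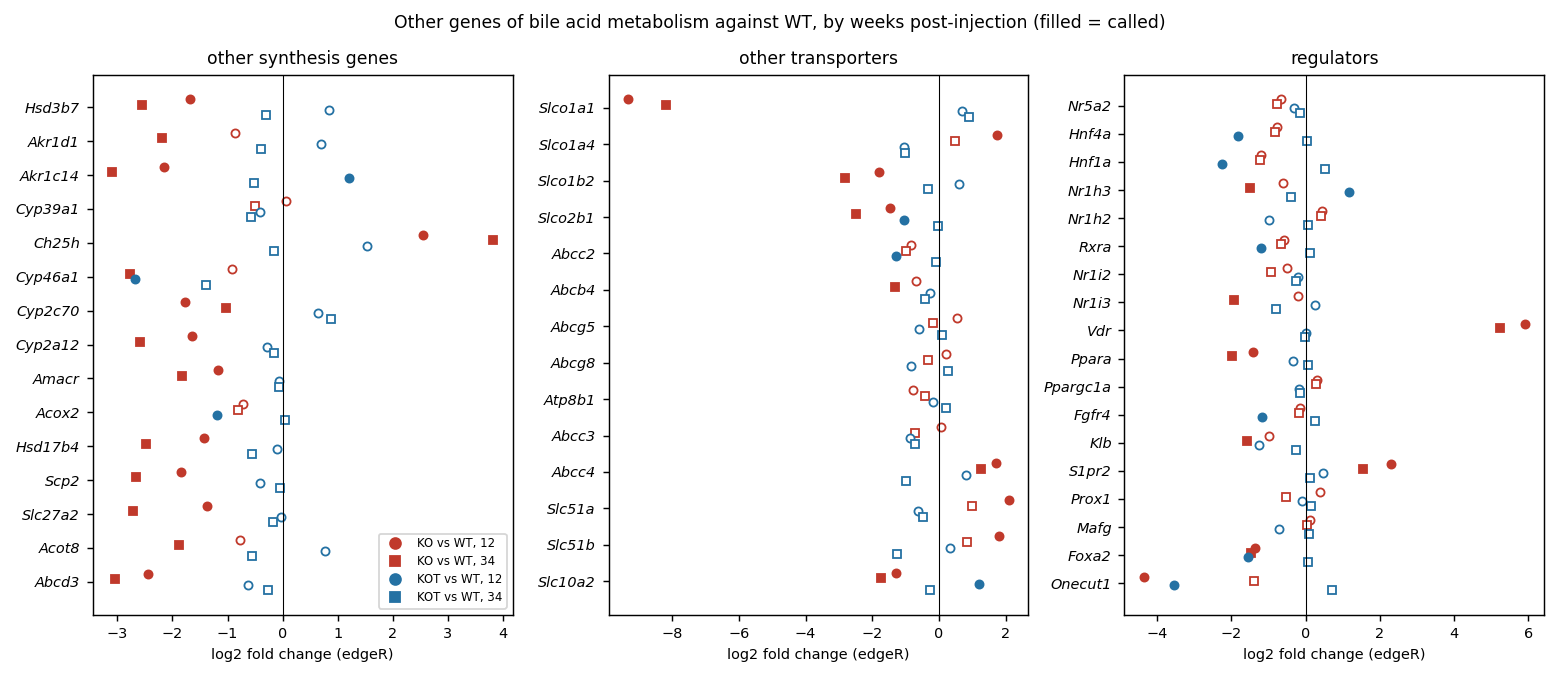
Log2 fold change from edgeR against WT livers of the same time for 15 other synthesis genes, 14 other transporters and 18 regulators, with untreated Lipa-/- livers (KO) in red, treated livers (KOT) in blue, circles for 12-weeks, squares for 34-weeks and filled symbols for calls (n = 3 livers a group). Most red symbols of the synthesis genes lie left of 0, Slco1a1 lies farthest left among the transporters at -9.34 and -8.17, and the plotted fold of Vdr, which was at or near 0 reads in WT livers, is no bound.

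Of 10 genes known to be higher in male than in female mouse livers, 10 were called lower in Lipa-/- livers at 12-weeks and 9 at 34-weeks, and all 10 were higher in treated than in untreated livers at both times. Slco1a1 belongs to this list as well, and Cyp7b1 was not in it. Among all genes, 9.06% and 15.7% were called lower in Lipa-/- livers at the 2 times. In treated against untreated livers 16.2% and 12.8% of all genes were called higher. Of 6 tested genes known to be higher in females, 3 were higher at 12-weeks, and 2 were higher and 3 lower at 34-weeks. Of 14 clock genes, 3 were higher and 3 lower at 12-weeks and 2 were higher at 34-weeks, beside 29.3% and 36.3% of all genes called. The part of these groups in the values of the bile acid genes was not tested.

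Marker lists of other cell types also moved between WT and Lipa-/- livers, where 29.3% of all genes were called at 12-weeks and 36.3% at 34-weeks. The 13 macrophage markers, of which 11 were called higher at 12-weeks and 9 higher and 1 lower at 34-weeks, summed to 199 to 508 CPM in WT, 5840 to 10300 CPM in Lipa-/- and 1370 to 3180 CPM in treated livers at 12-weeks, and to 351 to 705, 5190 to 8350 and 548 to 1240 CPM at 34-weeks. The 9 stellate cell markers summed to 69.8 to 103, 380 to 643 and 145 to 447 CPM at 12-weeks and to 98.4 to 120, 697 to 1540 and 116 to 134 CPM at 34-weeks. Of the stellate markers 5 were higher and 1 lower at 12-weeks, and 6 higher and 2 lower at 34-weeks. The 6 cholangiocyte markers, of which 3 and 5 were higher, summed to at most 88.1 CPM in any liver, and the 8 lymphocyte markers, of which 3 were higher at 12-weeks and 4 higher and 1 lower at 34-weeks, to at most 19.1 CPM. The 8 neutrophil markers, of which 8 and 6 were higher, summed to 2.30 CPM or less in WT and 126 to 1650 CPM in Lipa-/- livers at 12-weeks, with 4 of them at 0 in WT. At 34-weeks they summed to 1.05 to 5.66 and 110 to 281 CPM, with 2 at 0 in WT, and to 1.69 to 798 CPM in treated livers. The 8 endothelial markers, of which 1 was higher and 4 were lower at each time, summed to 206 to 239 CPM in WT and 83.3 to 92.6 CPM in Lipa-/- livers at 12-weeks. Of the 18 hepatocyte markers 4 were called lower and 1 higher at 12-weeks, and 12 lower at 34-weeks. The part of these shifts in the levels of the bile acid genes was not tested.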

How the data were processed

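RNA-seq tables of 18 livers were read as deposited, and labels gave the groups. The authors quantified transcripts of GRCm39 with Salmon and used tximport to obtain estimated counts per gene. Deposited TPM values and effective lengths come from the same step. The submitters' processing notes name R 4.3.0 and DESeq2 1.40.1. A further deposited table holds the authors' fold changes and p values, which were not used.

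Counts were rounded, genes with more than 100 reads over all livers were kept, and edgeR 4.0.16 in R 4.3.3 was fitted with TMM factors and 6 group means to test 11 comparisons, 6 of them within a time point. Calls needed a log2 fold change beyond 1 and an adjusted p (Benjamini-Hochberg) under 0.05. CPM values were scaled by TMM. Values are means ± SD over 3 mice, and fold changes carry the SE.

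The members and gene lists were chosen with earlier results of these data known. All members were named. Of each other list, up to 3 called genes in each direction and comparison, with a mean of at least 1 CPM, could be named, along with Fgf15, Slc51a, Slc51b, Nr5a2, Hnf4a, Fgfr4 and Klb. Lists were synthesis, transport, regulators, male- and female-biased genes, clock genes and markers of 7 cell types. Sequences and positions are from GENCODE for GRCm39, read with Python 3.11.15. Some items are not reported here.

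Alternatives were DESeq2 1.42.0, gene length offsets in both tools, total counts, upper quartile factors, scaling by the hepatocyte markers, no filter, filterByExpr, only the groups compared, adjusted p alone or under 0.01, log2(TPM + 0.5) with limma 3.58.1, mouse number as a block, and each mouse left out. The procedure was tested on simulated data.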

Additional observations from a re-analysis of the deposited data

Results flagged for a closer look

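The difference of Baat between rAAV8-treated and WT livers was not the same at the 2 time points by a test of the difference itself. The change from 12- to 34-weeks was -1.997 on the log2 scale (SE 0.49, edgeR adjusted p = 0.0246). At 12-weeks the treated livers were at 949 ± 394 CPM (SD, n = 3) and the WT livers at 345 ± 61 CPM, and at 34-weeks they were at 225.5 ± 26.3 and 328 ± 167 CPM. Over the alternatives the value ranged from -2.22 to -1.03 and the adjusted p from 0.00166 to 0.0754. The call was lost without treated mouse 10 of the 12-week group, which had the lowest TMM factor of the 18 libraries (0.587), and without treated mouse 9 or WT mouse 1 of the 34-week groups or WT mouse 1 or 3 of the 12-week group. The part of that library in the difference was not tested beyond leaving it out.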

How the results depend on the processing

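The fold changes that the text gives come from 68 pairs of a member and a comparison, a choice made after the data were seen: all members in the comparisons with untreated Lipa-/- livers at a time point, and elsewhere those past the adjusted p or called under any alternative. Of 1285 values under the alternatives, 1121 kept their direction and side of the threshold, 67 lost a call, 60 gained one and 37 changed sign, 1 of them of a called value.

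The number of members called in Lipa-/- against WT livers at 12-weeks was 4 with hepatocyte scaling, a list of which 4 of 18 genes were themselves lower. With TPM it was 5. At 34-weeks this number was 6 with hepatocyte scaling, 7 with TPM, and 8 with total counts, upper quartile factors or an adjusted p under 0.01. For treated against untreated livers at 12-weeks it was 4 with total counts or TPM. It was 5 with hepatocyte scaling, upper quartile factors, no filter or length offsets in edgeR. It was 7 with DESeq2 or only the groups compared and 8 with the adjusted p alone. At 34-weeks it was 7 with total counts, TPM or hepatocyte scaling and 8 with an adjusted p under 0.01. For Lipa-/- livers between the time points it was 4 with DESeq2, 5 with DESeq2 and length offsets, 1 with TPM, and 0 with an adjusted p under 0.01, only the groups compared, total counts or hepatocyte scaling. For treated against WT livers at 12-weeks it was 3 with the adjusted p alone, total counts or TPM and 2 with length offsets in either tool, and at 34-weeks it was 1 with DESeq2, with or without lengths. For treated livers between the time points it was 3 with the adjusted p alone, total counts or TPM and 2 with hepatocyte scaling or length offsets in either tool. For the interaction of Lipa-/- livers it was 4 with DESeq2, 2 with lengths added and 1 with TPM. For that of treated livers it was 4 with TPM, 3 with DESeq2, length offsets in either tool, total counts or upper quartile factors, 2 with hepatocyte scaling and 0 with an adjusted p under 0.01 or only the groups compared. The number of all genes called moved with the settings as well. In Lipa-/- against WT livers at 12-weeks it was 4256, and 5012 with hepatocyte scaling. In treated against untreated livers at 12-weeks it was 6027, and 7612 with total counts and 7887 with the adjusted p alone. For Lipa-/- livers between the time points it was 72, and 442 with DESeq2. For the interaction of treated livers it was 2675, and 6 with only the groups compared. The cause of these shifts was not tested.

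Signs changed mostly for values near 0. Abcb11 in treated against WT livers at 12-weeks was 1.23 with DESeq2 and lengths, 1.18 with edgeR and lengths and 0.57 with TPM, and its interaction was -1.45, -1.39 and -0.61. Between the time points of treated livers Abcb11 was 0.068 with hepatocyte scaling and 0.49 with total counts, and it was called with length offsets in edgeR (-1.535) and in DESeq2 (-1.596), and Cyp7b1 was 0.38 with TPM. In treated against untreated livers at 12-weeks, Cyp27a1 was -0.043 with hepatocyte scaling, -0.18 with total counts and -0.32 with TPM. Nr0b2 was -0.0062 with edgeR and lengths, -0.82, -0.79, -1.62 and -0.069 with hepatocyte scaling, total counts, TPM and upper quartile factors. On TPM, Cyp7a1 was -0.12, Nr1h4 -0.10 and Slc10a1 -0.18. In Lipa-/- against WT livers at 12-weeks, Cyp7a1 was 0.056 with DESeq2 and lengths, 0.038 with edgeR and lengths, 0.53 with hepatocyte scaling and 0.40 with total counts or TPM, and Nr1h4 was 0.12 with hepatocyte scaling. At 34-weeks Cyp7a1 was 0.0029 with hepatocyte scaling.

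With each mouse left out, the number of members called ranged from 0 to 3 for treated against WT livers at 12-weeks, 0 to 3 for Lipa-/- livers between the time points, 1 to 2 for treated livers, 0 to 1 for WT livers, and 0 to 1 and 0 to 3 for the interactions of Lipa-/- and treated livers. Abcb11 ranged from -0.26 to 0.069 in treated against WT livers at 12-weeks, -0.35 to 0.091 between the times and -0.077 to 0.40 in the interaction. Cyp7a1 ranged from -0.65 to 0.28 in Lipa-/- against WT livers at 12-weeks, and Nr0b2 from -0.56 to 0.51 in treated against untreated livers.

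With the mouse number as a replicate block, 0 members were called in WT livers between the time points. The mice at the 2 times are different animals, and deviations of equal numbers correlated at 0.08, -0.24 and 0.46, so the numbers do not pair them. Each comparison rests on 3 livers a group.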
